A study of Mus musculus with 6 samples.

Results

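Germ cell genes, several of them known to be kept off in somatic cells through promoter methylation, were followed across 6 Illumina mouse-8 V2 BeadChips. The 10 genes were Dazl, Ddx4, Sycp3, Mael, Stk31, Tex19.1, Prdm1, Prdm14, Stra8 and Kit, and every probe whose annotated symbol was one of them was taken. This gave 13 of the 25697 probes on the array, for 9 of the 10 genes. Ddx4 had 3 probes, Stk31 and Prdm1 had 2 each, and no probe was named for Kit, so its level was not analysed here. Probes of 1 gene were numbered from the brightest to the dimmest.

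Each array was hybridized with amplified RNA of 1 culture. The tested cells were FAH-/- induced pluripotent stem (iPS) cell lines #4 and #7, made from FAH-/- fetal fibroblasts with gamma-retroviral vectors for Oct4, Sox2, Klf4 and c-Myc and grown on feeder fibroblasts, and the gene-corrected FAHgc-iPS pair #7.1 and #7.2, subclones of line #7 that carry a lentiviral FAH-2A-EGFP cassette under the SFFV promoter. They were set against OG2 embryonic stem (ES) cells, a line with a GFP reporter of Oct4, and against the FAH-/- mouse embryonic fibroblasts (MEFs) from which the lines came, a population mixed from male and female mid-gestation fetuses. FAH-/- mice lack fumarylacetoacetate hydrolase, an enzyme of tyrosine breakdown, and the MEFs and all iPS lines come from them, while the labels give no FAH genotype for the OG2 ES cells. Lines #4 and #7 were male, and 3 of the 4 iPS arrays descend from line #7.

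Germ cells arise in the embryo when the transcription regulators Prdm1 (Blimp1) and Prdm14 set a few epiblast cells apart from their somatic neighbours. The cells then erase most of their DNA methylation and switch on Dazl, Ddx4, Mael and Sycp3, which serve RNA control, transposon defence and meiosis. In somatic cells the promoters of Dazl, Ddx4, Sycp3, Mael and Tex19.1 are known to be methylated, and a Polycomb complex of the PRC1.6 type that reads E-box and E2F motifs also holds many such genes off. Tex19.1, which restrains retrotransposons, is known to be active in mouse pluripotent cells as well as in germ cells. The arrays read RNA only, and methylation of these genes was not analysed here.

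The sequence just upstream of each start is shown because CpG dinucleotides are what methylation acts on. RefSeq windows of build GRCm38.p6 were found for 9 of the 10 genes, and the 250 bases before the annotated start are printed 5′ to 3′ on the gene's strand, with CpG in capitals, for the gene with a strong signal (Tex19.1), for the 3 with a dim signal in pluripotent cells (Dazl, Ddx4, Stk31), for 1 with none (Mael) and for the one poorest in CpG (Stra8).
Tex19.1 (chr11:121145893-121146142, plus strand): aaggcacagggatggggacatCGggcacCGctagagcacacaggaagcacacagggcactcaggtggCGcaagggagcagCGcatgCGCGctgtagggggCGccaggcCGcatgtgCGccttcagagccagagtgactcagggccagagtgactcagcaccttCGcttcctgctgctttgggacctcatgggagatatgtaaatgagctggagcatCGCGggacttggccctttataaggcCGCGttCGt
Dazl (chr17:50293621-50293870, minus strand): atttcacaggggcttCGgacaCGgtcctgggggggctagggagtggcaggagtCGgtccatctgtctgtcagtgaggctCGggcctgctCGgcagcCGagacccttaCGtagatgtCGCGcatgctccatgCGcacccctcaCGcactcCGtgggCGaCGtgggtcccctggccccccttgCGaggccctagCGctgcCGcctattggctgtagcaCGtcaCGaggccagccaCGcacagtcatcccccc
Ddx4 (chr13:112652311-112652560, minus strand): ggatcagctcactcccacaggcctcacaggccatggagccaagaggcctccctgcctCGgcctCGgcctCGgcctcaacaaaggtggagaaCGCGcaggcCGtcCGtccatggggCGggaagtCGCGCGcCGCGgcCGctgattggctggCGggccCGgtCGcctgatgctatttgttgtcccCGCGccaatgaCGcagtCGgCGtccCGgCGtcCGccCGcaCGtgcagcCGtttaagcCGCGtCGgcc
Stk31 (chr6:49395289-49395538, plus strand): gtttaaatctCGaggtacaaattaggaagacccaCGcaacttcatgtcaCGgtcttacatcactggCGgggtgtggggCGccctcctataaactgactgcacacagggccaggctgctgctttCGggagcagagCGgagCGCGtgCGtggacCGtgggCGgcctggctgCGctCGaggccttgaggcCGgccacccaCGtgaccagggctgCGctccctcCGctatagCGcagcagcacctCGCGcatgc
Mael (chr1:166238745-166238994, minus strand): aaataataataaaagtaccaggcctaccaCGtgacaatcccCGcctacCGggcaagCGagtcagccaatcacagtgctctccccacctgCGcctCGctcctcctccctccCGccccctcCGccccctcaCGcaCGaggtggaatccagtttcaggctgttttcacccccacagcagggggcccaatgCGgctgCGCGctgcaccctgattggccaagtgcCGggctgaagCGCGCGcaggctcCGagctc
Stra8 (chr6:34920698-34920947, plus strand): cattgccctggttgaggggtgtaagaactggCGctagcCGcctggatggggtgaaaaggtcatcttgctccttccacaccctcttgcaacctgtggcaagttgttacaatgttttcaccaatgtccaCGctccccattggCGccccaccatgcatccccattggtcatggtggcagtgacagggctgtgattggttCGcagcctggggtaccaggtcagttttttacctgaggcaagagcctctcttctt

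Ddx4 had 31 CpG in its window, a number that 5.19% of the 32851 windows in the table reach. Stk31 had 21 at the start shown, reached by 16.3% of windows, and 26 at a second annotated start, reached by 9.59%. Dazl had 20 (17.9%), Mael had 18 (21.7%), Tex19.1 and Prdm1 had 15 each (27.3%) and Sycp3 had 12 (33.5%), against a median of 6 over all windows. Stra8 had 5, which 55.6% of windows reach. Kit, which has no probe here, had 17 (23.5%) and 18 (21.7%) at its 2 annotated starts.

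The E-box CACGTG, a palindrome that reads the same on both strands, was present in the windows of Ddx4, Mael and Stk31 and at 2 places in that of Sycp3, and in 6.02% of all windows. The E2F-type motif GCGGGA, searched on both strands, was present in those of Tex19.1, where it began 33 bases before the start, Ddx4, Mael and Sycp3, at 2 places in that of Kit, and in 16.9% of all windows. Both motifs hold a CpG, and no site of one overlapped a site of the other. Dazl, Prdm1 and Stra8 had neither set of letters in this window.

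**Figure D1:**
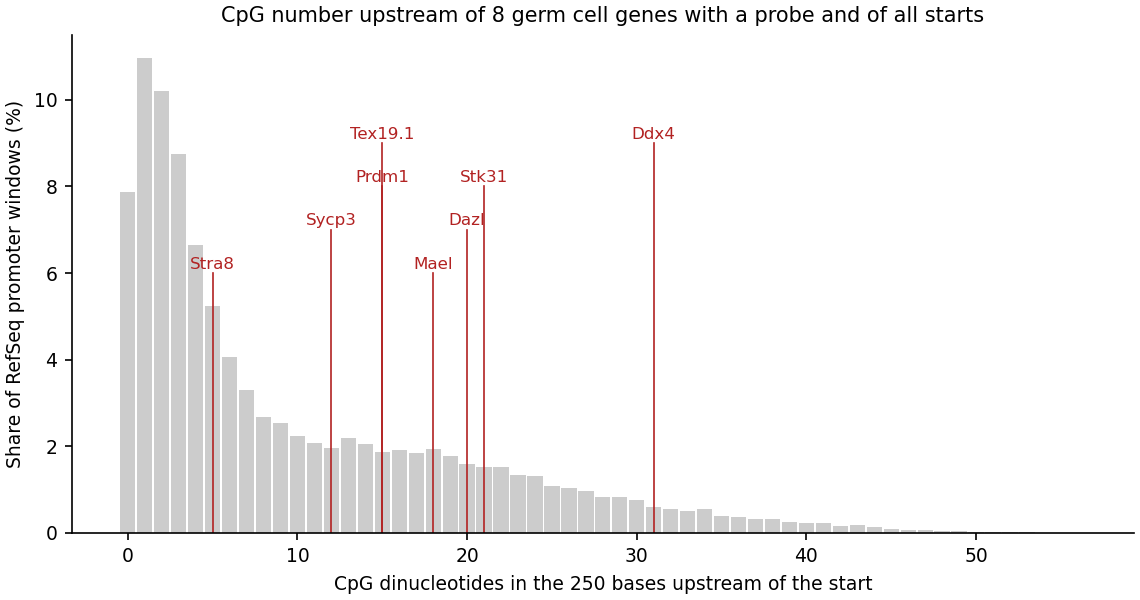
Number of CpG dinucleotides in the 250 bases upstream of annotated starts. Grey bars give the share of all 32851 RefSeq windows (%) with each number, and red lines mark the first annotated start of 8 germ cell genes with a probe, which run from 5 in Stra8 to 31 in Ddx4.

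The arrays fitted their labels. Of 16 fibroblast markers measured, 14 were lower in the iPS lines than in MEFs and none was called between iPS lines and ES cells, and their summed signal over background was between 1091 and 1616 in the iPS lines, 822 in ES cells and 62025 in MEFs. Of 12 pluripotency markers, 11 were higher in the iPS lines than in MEFs, with a summed signal between 42763 and 57803 in the iPS lines, 48504 in ES cells and 77.4 in MEFs. Against ES cells, Zfp42 (2.52 on the log2 scale) and Tdgf1 (1.47) of these markers were called higher in the iPS lines, and none was called lower. The part of these markers in the differences given here was not tested. Between 45.8% (ES cells) and 48.6% (MEFs) of probes were above background, which here means a signal more than 2.33 noise SDs over the background of the array. Over all probes tested, 1925 were higher and 1852 lower in the iPS lines than in MEFs (1438 and 2496 with median scaling), 1944 were higher and 1918 lower in ES cells than in MEFs (1184 and 2820 with median scaling), and 56 were higher and 89 lower in the iPS lines than in ES cells (0.383% and 0.609%; 80 and 61 with median scaling). Calls needed an adjusted p under 0.05 from limma together with a 2-fold change, which 24.6% of probes met in iPS lines against MEFs and 27.5% in ES cells against MEFs. MEFs and ES cells had 1 array each. These p-values thus measure only the spread between the 4 iPS lines, which limma draws for each probe toward that of all probes tested. These lines are not independent, since all but line #4 are line #7 or its subclones. The fit treated them as independent, so the spread between separately made lines may be larger and the p-values too small. An SD with n = 4 likewise counts lines and not separate reprogramming events.

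Of the 13 germ cell gene probes, none was above background in MEFs, where 48.6% of all probes were, and on a wider limit of 1.64 noise SDs 1 was (probe 3 of Ddx4). The iPS arrays had 5 (line #4), 4 (line #7), 6 (line #7.1) and 5 (line #7.2) of them above background, and the ES cell array had 7. On all 5 pluripotent arrays and not in MEFs, 4 probes were above background, those of Tex19.1, Dazl, Ddx4 (probe 2) and Stk31 (probe 1), against 3.05% of all probes. On no array at all were 6 of the 13, against 39.0% of all probes. In whole cultures, fewer cells that express a gene and less RNA per cell cannot be told apart.

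Tex19.1 (chromosome 11) was the one gene of the set with a strong signal. Its normalized log2 signal was 10.66, 9.95, 10.14 and 10.09 in lines #4, #7, #7.1 and #7.2, against 11.07 in ES cells and 6.04 in MEFs. All pluripotent arrays were thus far above the MEF array, whose signal lay only 0.066 noise SDs over background, and the iPS lines did not overlap with either of the others. The iPS lines averaged 10.21 ± 0.31 (SD, n = 4), which was 4.17 above MEFs on the log2 scale (SE 0.22, adjusted p = 1.9e-08 from limma, with 4 of 4 lines above). As MEFs were not well above background this is a bound of at least 15.1-fold, and for ES cells over MEFs the difference of 5.03 (SE 0.28, adjusted p = 2.1e-07 from limma) is at least 27.2-fold. Such bounds set the mean of the bright group against the lowest normalized signal above background on the dim array.

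Between the pluripotent cells, Tex19.1 was lower in each of the 4 iPS lines than in ES cells. The mean difference was −0.85 on the log2 scale (SE 0.22, 95% interval −1.34 to −0.37, adjusted p = 0.053 from limma), which did not pass the test. By line it was −0.40 (#4), −1.12 (#7), −0.93 (#7.1) and −0.97 (#7.2), and without line #4 it passed, at −1.01 (adjusted p = 0.00093 from limma). The lines left in that fit were line #7 and its own subclones. Its p-value thus measures only the spread within line #7 and its descendants, drawn by limma toward that of all probes tested.

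**Figure D2:**
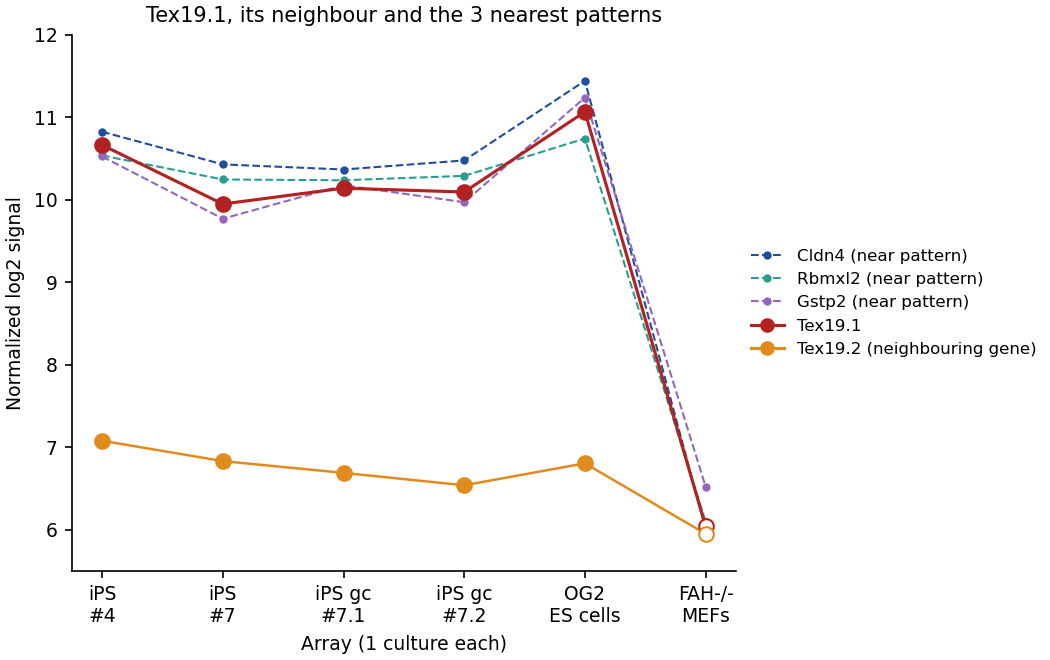
Normalized log2 signal of Tex19.1 (red), of the neighbouring gene Tex19.2 (orange) and of the 3 genes with the nearest pattern (dashed) on the 6 arrays, 1 culture each, with lines drawn only to guide the eye. Open red and orange circles are not above background; Tex19.1 lies between 9.95 and 11.07 in pluripotent cells and at 6.04 in MEFs.

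The genes whose pattern over the 6 arrays was most like that of Tex19.1, by the root mean square distance of mean-centred log2 signals among 10729 genes, were Cldn4, a tight junction protein (0.17), Rbmxl2, an RNA-binding protein of the male germ line (0.21), and Gstp2, a glutathione transferase (0.23). Cldn4, for example, was at 10.82, 10.43, 10.37 and 10.48 in lines #4, #7, #7.1 and #7.2, at 11.44 in ES cells and at 6.01 in MEFs. The probe of Tex19.2, the neighbour and close relative of Tex19.1 on chromosome 11, was at 7.08, 6.83, 6.69 and 6.54 in lines #4, #7, #7.1 and #7.2, at 6.80 in ES cells and, not above background, at 5.95 in MEFs. It was looked at after the values of Tex19.1 were seen.

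Dazl, Ddx4 and Stk31 made a second tier, each with a probe above background on all pluripotent arrays but never by more than 8.17 noise SDs. Other probes of Ddx4 and Stk31 did not meet this, as given below. Dazl (chromosome 17), an RNA-binding protein that prepares germ cells for sexual differentiation, was at 6.86, 6.63, 6.84 and 6.49 in lines #4, #7, #7.1 and #7.2, against 6.73 in ES cells and 6.15 in MEFs. The iPS lines lay on both sides of the ES cells, and all were above MEFs. The mean of the iPS lines, 6.70 ± 0.18 (SD, n = 4), was 0.55 above MEFs (SE 0.17, adjusted p = 0.014 from limma, 4 of 4 lines), with a lower bound of 1.32-fold. In ES cells the signal was 0.58 above MEFs (SE 0.21, adjusted p = 0.035 from limma), or at least 1.35-fold, and neither difference reached 2-fold. Against ES cells the iPS lines differed by −0.03 (95% interval −0.40 to 0.34, adjusted p = 0.95 from limma).

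Stk31 (chromosome 6) encodes a Tudor domain protein with a kinase-like domain found in germ cells. Probe 1 was at 6.57, 6.54, 6.37 and 6.40 in lines #4, #7, #7.1 and #7.2, at 6.40 in ES cells and at 5.86 in MEFs, where it lay below the background estimate. It was 0.61 above MEFs in the iPS lines (SE 0.15, adjusted p = 0.0033 from limma, 4 of 4 lines), a bound of only 1.13-fold, and 0.54 above MEFs in ES cells (SE 0.18, adjusted p = 0.025 from limma), a bound of 1.07-fold. Probe 2 was not above background on any array and ran between 5.71 and 5.87 in the iPS lines, at 5.96 in ES cells and at 5.97 in MEFs, so the probes disagree and the signal of Stk31 rests on 1 of them.

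Ddx4 (chromosome 13) encodes the mouse Vasa helicase of germ granules. Probe 1 was at 6.68, 6.29, 6.85 and 6.77 in lines #4, #7, #7.1 and #7.2, against 6.53 in ES cells and 6.16 in MEFs. Line #7 alone among the pluripotent arrays was not above background there, although both of its subclones were. Probe 2 was above background on all of them, at 6.48, 6.34, 6.43 and 6.40 in lines #4, #7, #7.1 and #7.2 and 6.46 in ES cells, against 6.11 in MEFs. The iPS lines differed from MEFs by 0.49 for probe 1 (SE 0.19, adjusted p = 0.051 from limma) and by 0.30 for probe 2 (SE 0.14, adjusted p = 0.085 from limma), with all 4 lines above MEFs for both, and as MEFs were not above background the bounds are 1.28-fold and 1.08-fold. Probe 3 was above background nowhere and was highest in MEFs, between 5.80 and 5.94 in the iPS lines, 5.82 in ES cells and 6.24 in MEFs, where it lay 1.80 noise SDs over background.

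**Figure D3:**
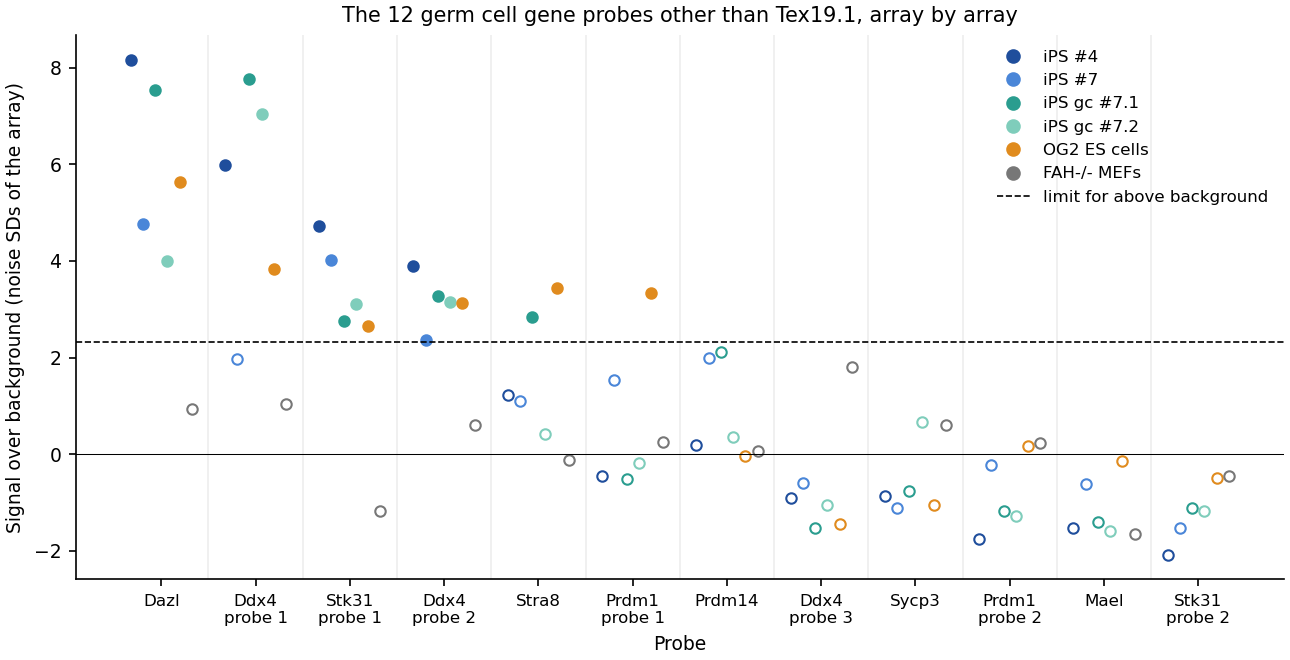
Signal over background, in noise SDs of the array, of the 12 germ cell gene probes other than Tex19.1, with 1 circle an array. Filled circles are above background (dashed line, 2.33 noise SDs); Dazl reaches 8.17 in line #4, and no MEF circle is filled.

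Stra8 and Prdm1 were above background on a few pluripotent arrays. Stra8 (chromosome 6), the retinoic acid-induced gatekeeper of meiosis, was above background in line #7.1 (6.38) and in ES cells (6.49), and below the limit at 6.19, 6.18 and 6.09 in lines #4, #7 and #7.2 and at 6.02 in MEFs. The iPS lines averaged 6.21 ± 0.12 (SD, n = 4) and lay 0.19 above MEFs (SE 0.15, adjusted p = 0.31 from limma) and 0.28 below ES cells (95% interval −0.62 to 0.05, adjusted p = 0.37 from limma). Prdm1 (chromosome 10), the repressor that starts germ cell specification, was above background by probe 1 in ES cells alone, at 6.48, against 6.06 in MEFs. In lines #4, #7, #7.1 and #7.2 it was at 5.97, 6.24, 5.96 and 6.01, all below ES cells, with a mean difference of −0.43 (SE 0.16, 95% interval −0.77 to −0.10, adjusted p = 0.15 from limma), or at least 1.11-fold higher in ES cells. Probe 2 of Prdm1 was above background on no array.

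Sycp3, Mael and Prdm14 were not above background on any of the 6 arrays. Sycp3 (chromosome 10), part of the axial core of meiotic chromosomes, ran between 5.87 and 6.12 in the iPS lines and was at 5.88 in ES cells and 6.11 in MEFs. Mael (chromosome 1), a protein of the piRNA pathway, ran between 5.79 and 5.94 in the iPS lines and was at 6.01 in ES cells and 5.78 in MEFs. Prdm14 (chromosome 1), which is known to guard naive pluripotency as well as germ cell fate in mice, came closest to detection: it was at 6.30 in lines #7 and #7.1, at 6.06 in line #4 and 6.08 in line #7.2, against 6.03 in ES cells and 6.04 in MEFs. On the wider limit it counted as above background in lines #7 and #7.1. These 3 genes were thus not detectable at this signal, and no difference between groups was tested for them.

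By comparison, of the 6 probes tested between iPS lines and MEFs, 1 (Tex19.1) was called higher and none lower, where 12.5% of all probes tested were called higher and 12.0% lower. None of the 6 was above background in MEFs, so they entered the test only through the pluripotent arrays and nothing is read from their common direction. Over all 13 probes, with no filter, all 4 iPS lines lay above the MEF array for 8, against 33.0% of all probes, and 2 of those 8 (Mael and Prdm14) were above background on no array. Between ES cells and MEFs 1 of 7 was called higher, again Tex19.1, where 13.8% of all were higher and 13.6% lower. These 7 likewise entered through the ES cell array alone. Both comparisons use the same MEF array. Between iPS lines and ES cells, limma called 0 of 7, where 0.992% of all were called. At an unadjusted p under 0.05 were 2 of the 7 (Tex19.1 and probe 1 of Prdm1, which entered through the ES cell array alone), against 18.4% of all. A call for 1 of 6 or 7 probes is near the share of all probes called. Taking each iPS line alone against MEFs, with no test, Tex19.1 was again the one germ cell gene probe at least 2-fold higher, where 13.6% (line #4), 13.9% (line #7), 13.7% (line #7.1) and 13.8% (line #7.2) of all probes were.

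**Figure D4:**
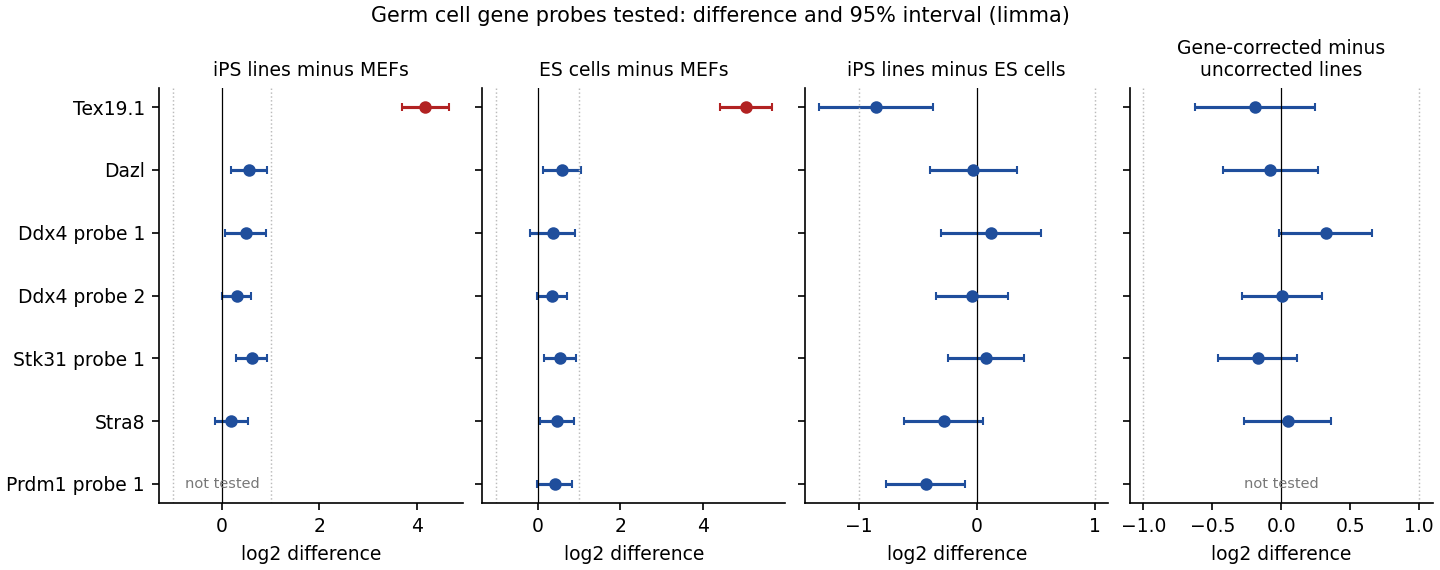
Log2 difference (points) with its 95% interval from limma (bars) of each germ cell gene probe tested, in 4 comparisons with their own axes. Red points were called (Tex19.1 at 4.17 and 5.03 above MEFs), blue were not, and dotted lines mark 2-fold.

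Gene correction was compared within the iPS lines. Both corrected lines are subclones of line #7, while line #4 is a separate line, so line origin and correction cannot be told apart in this comparison. Of 6 probes tested, limma called 0 between the gene-corrected and the uncorrected lines, as it called 0% of all 14241 probes tested, and 0 of the 6 had an unadjusted p under 0.05, against 4.66% of all. Tex19.1 was at 10.14 and 10.09 in lines #7.1 and #7.2, against 10.66 and 9.95 in lines #4 and #7, a difference of −0.19 (SE 0.20, 95% interval −0.62 to 0.25, adjusted p = 0.96 from limma) that turned to 0.17 without line #4. The corrected lines lay between the uncorrected ones. Probe 1 of Ddx4 was at 6.85 and 6.77 in lines #7.1 and #7.2, against 6.68 and 6.29 in lines #4 and #7 (difference 0.32, 95% interval −0.01 to 0.66, adjusted p = 0.95 from limma). Both corrected lines were higher there, as for 17.6% of all probes tested, and for probe 1 of Stk31 both were lower (−0.17, 95% interval −0.46 to 0.12), as for 16.1%. For the other 4 probes the lines overlapped.

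The other genes of the same pathways were read from 8 lists, with the brightest probe of each gene. Some genes are counted in several lists. Dppa3 and Dnd1 are among both other germ cell and specification genes, and Pou5f1, Nanog, Sox2 and Zfp42 are also pluripotency markers. Among meiotic chromosome genes, 4 of 10 tested were higher in the iPS lines than in MEFs and none lower, where 12.5% of all probes tested were higher and 12.0% lower, shares that stand for all lists in this comparison, and 9 of 19 with a probe were above background on no array. The 4 were Syce2, of the central element of the synaptonemal complex (1.73, SE 0.15), the cohesin subunits Stag3 (1.67, SE 0.15) and Rec8 (at least 2.08-fold) and the crossover protein Tex11. Rec8 and Tex11 were not above background in MEFs, and for Tex11 the difference of 1.37 (SE 0.15) that passed is a bound of only 1.88-fold. The list's median difference was 0.64, or 0.46 with genes not above background in 1 group set at their bound, against 0.04 over all probes tested. Only 5 of the 10 tested were above background in MEFs, and the others entered the test through the iPS arrays alone. Nothing is read from their common direction, nor from that of such genes in the lists below.

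Of 11 piRNA and nuage genes tested, 2 were higher and 1 lower (median 0.16, or 0.07 with bounds). Tdrd12, a Tudor domain protein, was at 9.40 ± 0.12 in the iPS lines (SD, n = 4), 9.77 in ES cells and 6.21 in MEFs, at least 8.57-fold above MEFs. Piwil2, a Piwi protein, was at 7.04 ± 0.25 (SD, n = 4), 7.43 and 5.99 in the same order, or at least 1.68-fold above MEFs, and Tdrd7, a Tudor domain protein also used outside the germ line, was lower in the iPS lines (−2.29, SE 0.16). Of 17 other germ cell genes tested, only 4 of them above background in MEFs, 5 were higher and none lower (median 0.55, or 0.22 with bounds).

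Those 5 were Zfp42 (Rex1; 5.25, SE 0.16), Dppa3 (Stella; at least 11.2-fold), Dnd1, an RNA-binding protein of primordial germ cells (at least 4.12-fold), Tex14 (at least 2.30-fold) and Tuba3b (8.73 ± 0.17 in the iPS lines, SD, n = 4, against 7.23 in MEFs), whose near-identical copy Tuba3a could share its signal. Zfp42 and Dppa3 are also known markers of naive pluripotent cells. Against ES cells, Zfp42 was higher in the iPS lines (11.59 ± 0.16 against 9.06, difference 2.52, SE 0.17, adjusted p = 2.8e-06 from limma). Tex14, a protein of germ cell bridges, was lower (7.50 ± 0.15 in the iPS lines against 8.62 in ES cells, difference −1.12, SE 0.16, adjusted p = 0.0025 from limma; SD, n = 4 for both genes).

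Of 16 genes tested of primordial germ cell specification, 9 were higher and 3 lower in the iPS lines than in MEFs (median 1.28). Among the higher ones were Pou5f1 (Oct4; at least 58.2-fold), Nanog (5.13), Tfap2c (at least 25.9-fold) and Lin28a (at least 16.5-fold), which are known for pluripotency as well, and Ifitm3 (−1.62), Bmp4 (−1.12) and Smad5 (−1.02) were the 3 lower ones. The probes of Pou5f1 and Sox2 may read vector transcripts too.

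Genes of the machinery known to hold germ cell genes off were read as well. Of 18 PRC1.6 and related repressor genes tested, 7 were higher and none lower in the iPS lines than in MEFs (median 0.49, or 0.47 with bounds). Pcgf6, the subunit that defines this complex, was at 10.48 ± 0.08 in the iPS lines (SD, n = 4), 10.53 in ES cells and 7.54 in MEFs (difference 2.95, SE 0.14), and L3mbtl2 (at least 4.50-fold) and Wdr5 (2.70), also found in this complex, and Trim28 (2.24), the corepressor of KRAB zinc finger proteins, rose too. Of the DNA-binding subunits, E2f6 (−0.15), Mga (0.37) and Max (0.58) were not called, and Tfdp1, the partner of E2F proteins, was higher (10.80 ± 0.11 in the iPS lines, SD, n = 4, against 9.30 in MEFs). None of the list was called between iPS lines and ES cells.

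Of 7 DNA methylation genes tested, 5 were higher and none lower in the iPS lines than in MEFs (median 1.66). The methyltransferase Dnmt3b was at 13.12 ± 0.16 in the iPS lines (SD, n = 4), 12.22 in ES cells and 6.89 in MEFs (difference 6.24 against MEFs), and its cofactor Dnmt3l (at least 44.4-fold), Uhrf1 (2.76) and Dnmt1 (1.66) followed. Tdg was the fifth (1.46).

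Retinoic acid acts upstream of Stra8, and Kit is a receptor of migrating germ cells. Of 10 retinoic acid pathway genes tested none was higher and 2 were lower in the iPS lines than in MEFs, the retinoid-binding proteins Crabp1 (−3.99, SE 0.18) and Crabp2 (−2.02, SE 0.16), with a median of −0.02. Of 11 Kit signalling genes tested, 3 were higher and 1 lower (median −0.18): Gab1 (3.13, SE 0.14), Ptpn6 (at least 2.43-fold), Spry4 (1.34, SE 0.16) and Pik3r1 (−1.65, SE 0.16). Kitl, the ligand of Kit, was above background on no array. Of the other cells that use Kit, mast cells had 0 to 2 of 8 markers above background on each iPS array, 0 in ES cells and 0 in MEFs, and melanoblasts had 2 of 6 on each iPS array, 1 in ES cells and 0 in MEFs, and no marker of either list was called in the iPS lines against MEFs. Mlana was above background on all 5 pluripotent arrays, Pmel on 4, Hdc on 3 and Fcer1a on 2, while the other markers with a probe, Cpa3, Mcpt4, Dct and Tyr among them, were above background on no array. Of 5 blood cell markers tested 2 were lower in the iPS lines than in MEFs (Gata2 and Emr1). Of 5 endothelial markers tested 1 was higher (Pecam1, a bound of only 1.66-fold), and it was higher in ES cells than in MEFs too. The others tested were not called, with Cd34 (−0.82) and Emcn (−0.62) lower and Tek (0.29) and Kdr (0.007) higher in the iPS lines. Cdh5 and Tie1 were above background on no array.

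In ES cells against MEFs, which share the MEF array with the comparison above, 3 of 9 meiotic genes tested were higher and none lower, 2 of 7 piRNA and nuage genes were higher and 1 lower, and 6 of 11 other germ cell genes were higher and none lower, where 13.8% of all probes tested were higher and 13.6% lower. Of the specification genes 9 of 16 were higher and 2 lower, of the PRC1.6 list 7 of 17 were higher and of DNA methylation genes 5 of 6 were higher, with none lower in either. Of 7 retinoic acid genes 2 were lower, and of 10 Kit signalling genes 3 were higher and 2 lower. Genes not above background in MEFs entered these tests through the ES cell array alone, so nothing is read from their common direction.

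**Figure D5:**
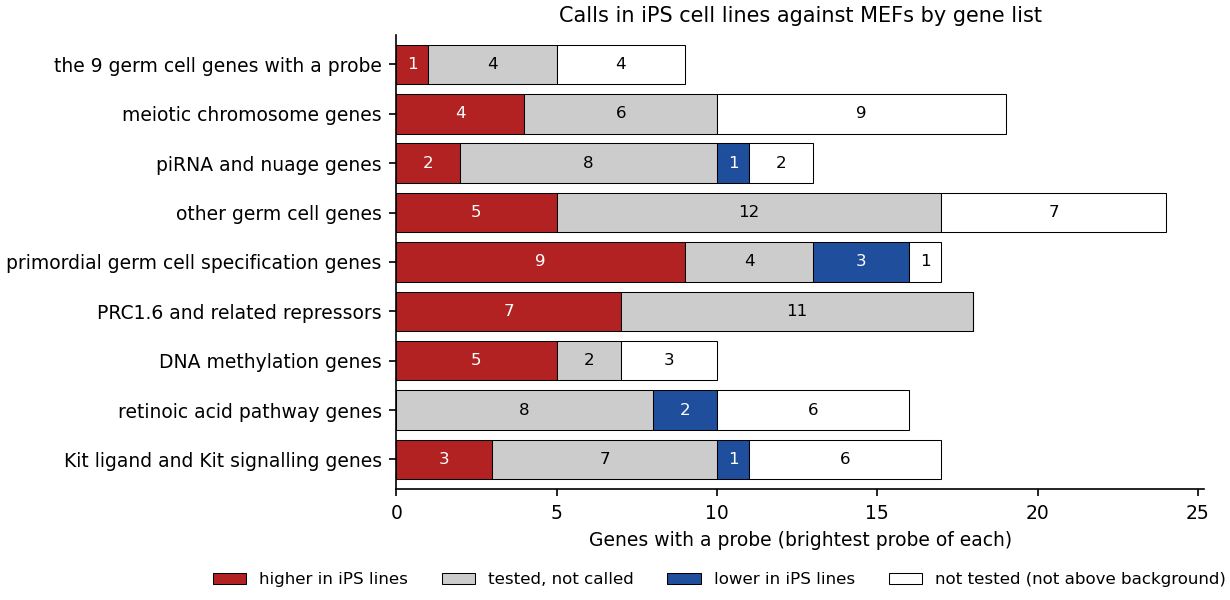
Number of genes with a probe in each list (horizontal axis), split by the call in iPS lines against MEFs: higher (red), tested and not called (grey), lower (blue) and not tested (white). Of those tested, 1 of 5 genes followed here (Tex19.1), 4 of 10 meiotic, 2 of 11 piRNA and nuage and 5 of 17 other germ cell genes were higher. So were 9 of 16 specification genes, 7 of 18 PRC1.6 and related repressors and 5 of 7 DNA methylation genes. Retinoic acid genes had 0 of 10 higher and Kit signalling genes 3 of 11, where 12.5% of all probes tested were higher.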

How the data were processed

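RNA of 6 cultures was measured, 1 array each. Deposited sample files hold probe intensity before background subtraction, and the series table holds the authors' intensity with background removed and cubic splines applied in BeadStudio (version not given in the sources). From the sample files, log2 values were made by normexp with an offset of 50 and then quantile normalization, in limma 3.58.1 in R 4.3.3; the offset understates changes of dim probes. Background was the exported signal at which the authors' value is 0, and noise the root mean square deviation of probes below it; both are approximate, since no detection p was used. Probes above background on at least 1 array of a comparison were fitted with 3 classes (3 residual degrees of freedom), or with gene-corrected against uncorrected lines (2), with Benjamini-Hochberg adjustment over all such probes. Having no replicate, MEFs and ES cells were taken to spread as the iPS lines do. The iPS lines were fitted as independent, although all but line #4 are line #7 or its subclones. With 6 arrays precision is limited.

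Of 25697 probes, 23978 name 1 gene and 1719 none, and 23962 matched a RefSeq gene of GRCm38.p6, used for names, chromosomes and promoter windows. All probes of the 10 genes were named; from other lists, up to 4 called genes by size of change against MEFs and any called against ES cells, and the 3 genes with the nearest profile to a member that ranged over 2-fold. Tuba3b, Tdg, E2f6, Mga, Max, Tfdp1, Kitl, Tex19.2, the lower genes of germ cell specification and the marker genes named fall outside this rule and were chosen after their values were seen. Lsh, an older name of Hells, was counted once. The genes and lists were chosen with earlier results of these data known. Alternatives covered background correction, scaling, filters, the authors' values, the fold threshold and each iPS line left out. On simulated arrays, with known changes put only in bright probes, large changes were called and those near the fold threshold mostly were not. This does not cover the germ cell gene probes other than Tex19.1, which were dimmer than the probes changed.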

Additional observations from a re-analysis of the deposited data

Results flagged for a closer look

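Probe 1 of Prdm1 stood apart in 1 iPS line. Its log2 signal was 6.24 in line #7, while the nearest other line was at 6.01 and the farthest at 5.96, a gap larger than Dixon's 95% limit for 4 samples allows. Line #7 was not above background for this probe, and its subclones, lines #7.1 and #7.2, did not share the value. All 13 probes were examined in the 4 lines, and chance alone marks about 1 in 20 such groups.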

How the results depend on the processing

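Tex19.1 was called higher in the iPS lines than in MEFs under all 12 alternatives run (3.62 to 6.33 on the log2 scale) and in ES cells than in MEFs under all 12 (4.46 to 7.18), except that it was not tested where a probe had to be above background on every array, a filter that leaves 0 of the germ cell gene probes to call against MEFs. With the authors' values, raised to the background limit where lower, 5951 probes were called in iPS lines against MEFs, 5801 in ES cells against MEFs and 311 in iPS lines against ES cells, against 3777, 3862 and 145, and 2 germ cell gene probes were called against MEFs in the iPS lines, with Dazl (1.64, adjusted p = 0.032 from limma) added. At 1.5-fold the counts were 6423, 6528 and 579, and 2 with probe 1 of Stk31 (0.61) added. Leaving out 1 iPS line, germ cell gene probes called against ES cells ran from 0 to 1 (Tex19.1 without line #4), and probes called between gene-corrected and uncorrected lines from 0 to 35 (35 without line #7, 3 without line #7.1); the cause was not tested. Median scaling moved the median of all probes in ES cells against MEFs to −0.19, with Tex19.1 at 4.89, and turned the uncalled difference of Dazl against ES cells to 0.035, as did leaving out line #7.2 (0.042) or using lines #4 and #7 only (0.011, with probe 1 of Ddx4 at −0.045). In the uncalled comparison of gene-corrected lines, leaving out 1 line gave −0.20 to 0.093 for Dazl (above 0 at 0.038 without line #4 and 0.093 without line #7.2), −0.55 to 0.17 for Tex19.1 (above 0 without line #4) and −0.064 to 0.075 for probe 2 of Ddx4 (below 0 at −0.064 without line #7 and −0.0084 without line #7.1). In all, 295 values of single probes kept their direction and side of the threshold, 9 turned and 3 newly passed it. No paired analysis was run. Both gene-corrected lines are subclones of line #7, and line #4 has no gene-corrected partner. Signals near background limit what can be said of the measured germ cell genes other than Tex19.1, and Kit had no probe.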
